A study of Bos taurus with 14 samples.

Results

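The genes described here are 5 members of the innate defence of the udder: TLR2 (ENSBTAG00000008008), TLR4 (ENSBTAG00000006240), CD14 (ENSBTAG00000015032), LTF (ENSBTAG00000001292) and HP (ENSBTAG00000006354). They were chosen by identifier, and all 5 are present among the 36075 identifiers of the deposited tables. RNA was measured in the milk fat globules of 14 purebred Holstein cows, 7 homozygous for the A1 allele of β-casein (A1A1) and 7 for the A2 allele (A2A2). All cows stood on 1 commercial farm with shared feed and management, and each cow gave 1 library. The labels give no age, stage of lactation, parity or udder health for any cow.

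Milk fat globules are the fat droplets that the secretory cell of the udder sheds into milk, wrapped in its membrane and carrying some of its cytoplasm and RNA. Bacteria that enter the udder are sensed by receptors of the Toll-like family. TLR2 recognises bacterial lipoproteins and cell wall parts, and TLR4 recognises lipopolysaccharide of Gram-negative bacteria. CD14 is a co-receptor that passes lipopolysaccharide to TLR4 and also serves TLR2. Lactoferrin, the product of LTF, is an iron-binding milk protein made by the mammary epithelium and also stored in neutrophil granules. Haptoglobin, the product of HP, is an acute phase protein that binds free haemoglobin. It comes mainly from the liver and is also made in the inflamed udder.

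Total counts per library ran from 16116849 to 22994197. A1A1 7 had the fewest genes with a count, 12545, where the median of the 14 libraries was 15087. A1A1 3 had a TMM factor (the scaling factor of a library's total) of 0.636, and A1A1 9 had a CPM (count scaled to library size) of 222371 for the most abundant gene, against a median of 84249 in A1A1. The 5 genes had between 0 and 21204 counts per library. In bulk RNA, fewer cells of a type and less RNA per cell cannot be told apart. Marker genes of secretory cells, neutrophils and macrophages were not analysed here because the identifiers carry no names.

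Lactoferrin RNA was by far the most abundant of the 5, and haptoglobin RNA the least. Levels are compared between genes as FPKM, which are fragments per kilobase of gene, scaled to an adjusted library size close to that of the TMM factors. The level of LTF had a median of 282 FPKM over the 14 cows and ran from 56.2 in A2A2 17 to 416 in A1A1 15. By total count LTF held rank 134 of the 21104 genes with a count. CD14 had a median level of 13.1 FPKM, with the lowest value of 8.61 in A2A2 13 and the highest of 25.3 in A1A1 9. The 2 Toll-like receptors lay lower and close to each other. TLR4 had a median level of 4.95 FPKM (2.46 in A1A1 7 to 13.7 in A1A1 15), and TLR2 one of 3.90 FPKM (2.07 in A1A1 7 to 8.20 in A1A1 15). HP had a median level of 1.33 FPKM and ran from 0 in A1A1 7 to 10.7 in A2A2 11.

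Each gene in this order was set against its neighbour within cows, as the mean difference in log2(FPKM + 0.1) with an exact sign-flip permutation test, two-sided, adjusted over the 4 neighbour pairs by Benjamini-Hochberg. LTF exceeded CD14 in 14 of 14 cows, by 3.99 on the log2 scale or 15.9-fold (exact adjusted p = 0.000244). CD14 exceeded TLR4 in 14 of 14 cows by 1.43, or 2.70-fold (exact adjusted p = 0.000244). The raw p of both was 0.000122, the smallest that 14 cows allow. TLR4 exceeded TLR2 in 12 of 14 cows, and the mean difference over all 14 was 0.38, or 1.30-fold (exact p = 0.0156, adjusted p = 0.0156). The exceptions were A1A1 3 and A2A2 4, so these 2 receptors overlapped widely. TLR2 exceeded HP in 11 of 14 cows, and HP was the higher in A1A1 2, A2A2 6 and A2A2 11. The mean difference of TLR2 from HP over all 14 was 1.74 (exact p = 0.00342, adjusted p = 0.00456). On this scale with a pseudocount the distance to HP is understated in the cows where HP is near 0.

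**Figure D1:**
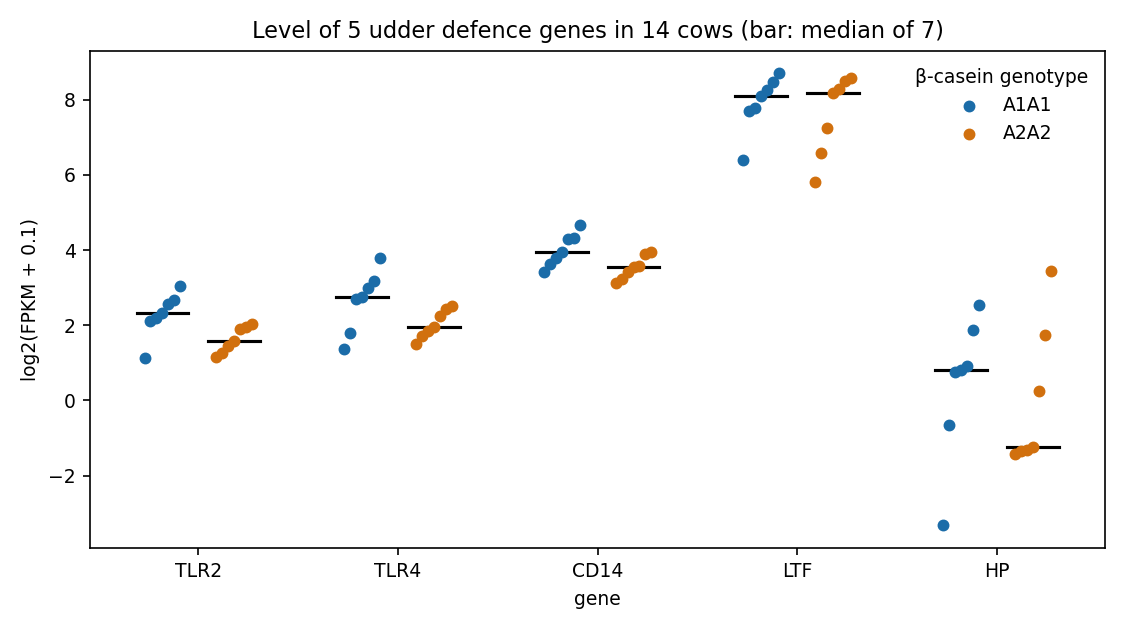
Level of each gene as log2(FPKM + 0.1) on the vertical axis in 7 A1A1 cows (blue) and 7 A2A2 cows (orange), 1 point per cow, with a bar at the median of each genotype. LTF lies above all other genes in every cow, the 2 genotypes overlap for all 5 genes, and HP spreads most, from 0 FPKM in A1A1 7 to 10.7 in A2A2 11.

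The co-receptor was the steadiest of the 5 genes between cows and haptoglobin the least steady. The SD of log2(CPM + 0.5) over the 14 cows was 0.45 for CD14, 0.59 for TLR2, 0.70 for TLR4, 0.91 for LTF and 1.42 for HP, where the median over the 12320 tested genes was 0.51. A larger SD was found for 60.3% of tested genes in the case of CD14, 38.6% for TLR2, 27.5% for TLR4, 13.9% for LTF and 3.45% for HP. The highest CPM exceeded the lowest 2.997-fold for CD14, 3.99-fold for TLR2, 5.58-fold for TLR4 and 7.54-fold for LTF. For HP, A2A2 11 with 14.0 CPM was at least 73.8-fold higher than A1A1 7, taking 3 counts as the limit that a count of 0 allows there.

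The spread of LTF came from a few cows at the low end. A2A2 17 had 122 CPM, A1A1 7 had 185 and A2A2 13 had 208, while the other 11 cows had 332 or more and a highest of 917 in A1A1 15. HP was spread differently. In 4 of 7 A2A2 cows it rested on 7 to 9 counts (0.353 to 0.415 CPM). The 7 counts of A2A2 17 have an exact Poisson 95% interval of 2.81 to 14.4, which covers counting error only. In A1A1 7 it had 0 counts, which allows up to 0.190 CPM.

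Single cows stood high or low for several of the genes at once. A1A1 15 had the highest CPM of TLR2, TLR4 and LTF and the second place for CD14, while for HP it held place 5 of 14. A1A1 7 had the lowest TLR2, TLR4 and HP and the place above the lowest for LTF. A2A2 13 was among the 3 lowest cows for 4 of the 5 genes (TLR2, CD14, LTF and HP). A2A2 11 had the highest HP of all cows, the highest LTF, TLR4 and CD14 of the A2A2 cows, and place 8 of 14 for TLR2. A1A1 3 was mixed, with place 2 for TLR2 and place 11 for TLR4.

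**Figure D2:**
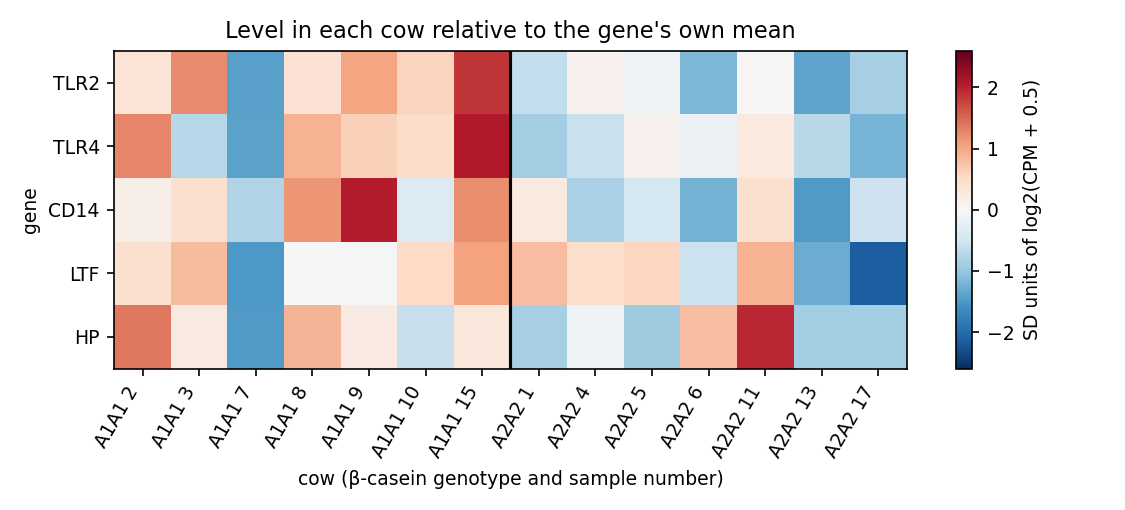
Level of each gene (rows) in each cow (columns, labelled by genotype and sample number, with a black line between the genotypes), as the distance from the gene's mean over 14 cows in SD units of log2(CPM + 0.5), red above and blue below. A1A1 2, A1A1 8, A1A1 15 and A2A2 11 are above the mean for all 5 genes. A1A1 7, A2A2 13 and A2A2 17 are below it for all 5.

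The genotype comparison asked whether these defence genes differ between A1A1 and A2A2 milk fat globules. The receptor genes TLR2, TLR4 and CD14 were on average lower in A2A2, but none of the 5 genes passed the test over all genes, and LTF and HP had no clear direction. In edgeR's quasi-likelihood test 0 of 5 members passed a Benjamini-Hochberg adjusted p of 0.05, as did 0 of all 12320 genes tested (0%). Of all genes 411 (3.34%) had an unadjusted p under 0.05, and DESeq2 called 9 genes, none of them a member. At an unadjusted edgeR p under 0.05 there were 3 of 5 members, all lower in A2A2, where 265 of 12320 genes, or 2.15%, were lower at that threshold. The CPM of 0 of 5 members parted the genotypes without overlap, as that of 5 of 12320 genes (0.0406%) did. The median log2 fold change was -0.52 over the 5 members and -0.0042 over all tested genes. The 3 receptor genes are not independent observations, since their pairwise r over the cows was 0.60 to 0.77. By the exact permutation test 2 of the 5 members had an unadjusted p under 0.05 against 1.55% of genes in that direction.

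TLR2, the lipoprotein receptor, had a lowest, median and highest value of 8.16, 19.0 and 32.6 CPM in A1A1 and of 8.29, 11.4 and 15.6 CPM in A2A2. In 6 of 7 A1A1 cows it was above every A2A2 cow, and the remaining one, A1A1 7, was below all of them. The means were 20.4 ± 7.59 and 11.99 ± 2.98 CPM (SD, n = 7 each). Its edgeR log2 fold change (A2A2 minus A1A1) was -0.76, with an unadjusted p of 0.00809 and an adjusted p of 0.856. On the scale of log2(CPM + 0.5) the means differed by -0.68, and the exact permutation test gave it a 95% interval of -1.22 to -0.10 (p = 0.0274, two-sided, 0.826 adjusted over all genes).

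TLR4, the lipopolysaccharide receptor, had 8.48, 23.3 and 47.3 CPM as lowest, median and highest in A1A1, and 9.29, 12.8 and 19.4 CPM in A2A2. In 5 of 7 A1A1 cows it was above every A2A2 cow, and A1A1 3 and A1A1 7 lay within or below the A2A2 range. The means were 24.4 ± 12.96 and 14.0 ± 3.79 CPM (SD, n = 7 each). Its edgeR log2 fold change was -0.80 (unadjusted p = 0.0217, adjusted p = 0.856). On the scale of log2(CPM + 0.5) the means of TLR4 differed by -0.64, with an interval of -1.37 to 0.11 (exact permutation p = 0.0892), and it was -0.85 without A1A1 7 (exact permutation p = 0.0140) and -0.45 without A1A1 15 (0.177).

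CD14, the shared co-receptor, had 29.8, 43.3 and 71.8 CPM as lowest, median and highest in A1A1, and 23.9, 32.1 and 43.3 CPM in A2A2. The genotypes overlapped, with 3 A2A2 cows below every A1A1 cow and 3 A1A1 cows above every A2A2 cow. The means were 47.0 ± 14.5 and 32.6 ± 7.33 CPM (SD, n = 7 each). Its edgeR log2 fold change was -0.52 (unadjusted p = 0.0202, adjusted p = 0.856). For CD14 the means of log2(CPM + 0.5) differed by -0.49, with an interval of -0.94 to -0.05 (exact permutation p = 0.0361, 0.826 adjusted over all genes). Without A1A1 9, the cow with the most CD14, it was -0.38 (exact permutation p = 0.0676).

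LTF did not separate the genotypes. Lactoferrin RNA had 185, 616 and 917 CPM as lowest, median and highest in A1A1, and 122, 631 and 846 CPM in A2A2. The means were 587 ± 241 and 515 ± 291 CPM (SD, n = 7 each), and the A2A2 median was the higher one. Its edgeR log2 fold change was -0.19 (unadjusted p = 0.654, adjusted p = 0.916), and 0.016 when library totals replaced the TMM factors. For LTF the difference of the means of log2(CPM + 0.5) had an interval of -1.41 to 0.77 (exact permutation p = 0.520). As a ratio of A2A2 to A1A1 this interval spans 0.376 to 1.71.

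HP gave means and medians that point in opposite directions. Haptoglobin RNA had 0, 2.17 and 7.57 CPM as lowest, median and highest in A1A1, and 0.353, 0.415 and 14.0 CPM in A2A2. The means were 2.77 ± 2.56 and 3.01 ± 5.04 CPM (SD, n = 7 each), the A2A2 mean being carried by A2A2 11. The edgeR log2 fold change of HP was 0.12 (unadjusted p = 0.901, adjusted p = 0.979), and without A2A2 11 it was -1.22 (unadjusted p = 0.182, adjusted p = 0.552). For HP the means of log2(CPM + 0.5) differed by -0.37, with an interval of -2.06 to 1.36 (exact permutation p = 0.633). The edgeR log2 fold change of HP was also below 0 without A1A1 7 (-0.096) and without A1A1 10 (-0.055), so its sign changed with any of 3 cows and with the scale.

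**Figure D3:**
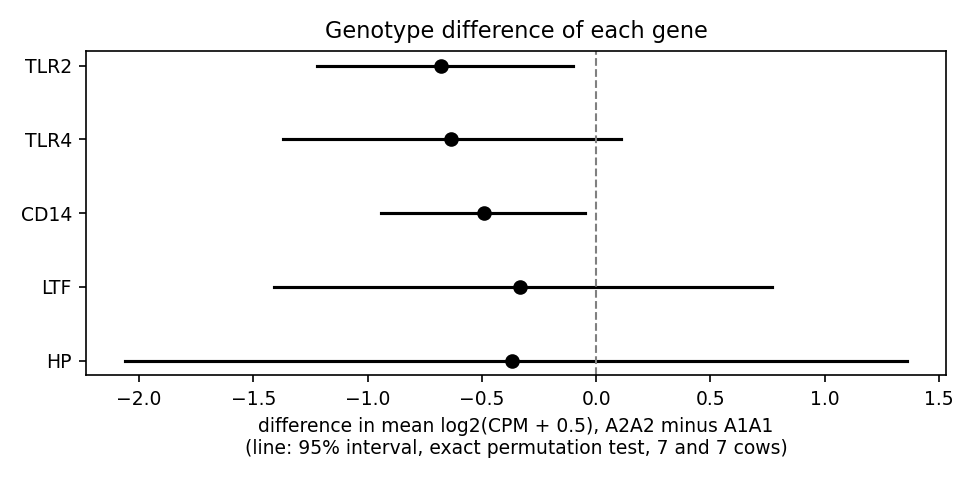
Difference in mean log2(CPM + 0.5), A2A2 minus A1A1, for each gene (point) and its 95% interval by exact permutation over 7 and 7 cows (line), and a dashed line at 0. The intervals of TLR2 and CD14 end at -0.10 and -0.05, those of TLR4, LTF and HP include 0, and the interval of HP is the widest.

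How the libraries were scaled moved the size of these differences. When library totals replaced TMM factors, the median over all tested genes went from -0.0042 to 0.18 on the log2 scale. The edgeR log2 fold changes became -0.55 for TLR2 (unadjusted p = 0.0496), -0.65 for TLR4 (0.0769) and -0.34 for CD14 (0.133). The most abundant gene differed in level as well, from 103816 ± 54301 CPM in the A1A1 cows to 39016 ± 16356 in the A2A2 cows (SD). Its r with each receptor gene over the cows is given with the library measures below, and no model of the genotype difference with this gene as a term was fitted. Without A1A1 3, A1A1 7 and A1A1 9, the libraries named above, the edgeR log2 fold change was -0.88 for TLR2, -1.21 for TLR4 and -0.53 for CD14, with unadjusted p of 0.00251, 0.000246 and 0.0195. The adjusted p was then 0.629, 0.629 and 0.772, and again 0 of all 13024 genes passed in edgeR. At an unadjusted p under 0.05 there were 741 genes, 534 of them lower in A2A2. This choice of libraries was made after seeing the data. It took out A1A1 7 for TLR2, and A1A1 3 and A1A1 7 for TLR4, the A1A1 cows that were not above every A2A2 cow. The smaller unadjusted p of these 2 genes are therefore no separate support for a genotype difference.

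The descriptions of 4 libraries (A1A1 10 and 15, A2A2 5 and 13) end in a suffix, _2, whose meaning the labels do not state. Among the 10 libraries without it the edgeR log2 fold change by genotype was -0.57 for TLR2, -0.59 for TLR4 and -0.48 for CD14, with unadjusted p of 0.0780, 0.131 and 0.0741. With all 14 libraries and the suffix as covariate, edgeR gave -0.75, -0.76 and -0.53 for these genes. The unadjusted p were 0.0105, 0.0255 and 0.0198, and the adjusted p was 0.731 for each. In the 4 libraries with the suffix, TLR2 was at 19.0 and 32.6 CPM in A1A1 against 14.1 and 8.29 in A2A2. TLR4 was at 21.5 and 47.3 against 18.02 and 11.95 CPM, and CD14 at 34.0 and 55.6 against 32.9 and 23.9 CPM. No test was run on 2 cows against 2, and how many of all genes part these 4 cows by genotype was not counted. The values are given as a description. In edgeR's test of suffix against no suffix with genotype as a covariate, 182 of 13323 genes (1.37%) passed an adjusted p of 0.05, and 0 of the 5 members did. At an unadjusted p under 0.05 there were also 0 of 5 members, against 19.3% of genes. The member of largest difference there was HP, with 0.932 ± 0.936 CPM in the 4 libraries with the suffix and 3.67 ± 4.32 in the other 10 (SD). Its log2 fold change was -2.13, with an unadjusted edgeR p of 0.0971 and an adjusted p of 0.349.

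TLR2 was the gene that varied most closely with the other receptors and with lactoferrin. Over the 14 cows, the 10 pairs of members were compared on log2(CPM + 0.5) by Pearson's r and Spearman's rho, each with a two-sided permutation p from 100000 resamples, adjusted over the 10 pairs. 3 pairs passed an adjusted p of 0.05 by r. TLR2 and CD14 had r = 0.77 (permutation p = 0.00159, adjusted p = 0.0154) and rho = 0.77 (p = 0.00187, adjusted p = 0.0187). TLR2 and TLR4 had r = 0.71 (permutation p = 0.00462, adjusted p = 0.0154) and rho = 0.67 (p = 0.0105, adjusted p = 0.0424). TLR2 and LTF had r = 0.71 (permutation p = 0.00438, adjusted p = 0.0154) and rho = 0.62 (p = 0.0210, adjusted p = 0.0525).

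These relations depended in part on the cows at the ends. Without A1A1 15 and A1A1 7, the 2 cows farthest from the median of TLR2, r was 0.73 for TLR2 and CD14, 0.48 for TLR2 and TLR4, and 0.61 for TLR2 and LTF. With the genotype means removed, r was 0.65, 0.61 and 0.76 for the same pairs. Within A1A1 it was 0.67, 0.66 and 0.92, and within A2A2 0.60, 0.45 and 0.73 (n = 7 each). In the 10 libraries without the suffix r was 0.74, 0.54 and 0.62, and 0 of the 10 pairs passed an adjusted p of 0.05 by permutation (2 at an unadjusted p under 0.05). For TLR2 and LTF the plot shows 4 cows with TLR2 under 11 CPM and 122 to 332 CPM of LTF (A1A1 7 and A2A2 6, 13 and 17), while the other 10 cows had 462 to 917 CPM of LTF.

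TLR4 and CD14, which act together on lipopolysaccharide, had r = 0.60 (permutation p = 0.0232, adjusted p = 0.0535) and rho = 0.58 (p = 0.0340, adjusted p = 0.0681). TLR4 and HP had r = 0.59 (permutation p = 0.0267, adjusted p = 0.0535) and rho = 0.66 (p = 0.0127, adjusted p = 0.0424). In the 10 libraries without the suffix the r of TLR4 and HP was 0.81. The r of the other 5 pairs ran from 0.41 for TLR2 and HP to 0.56 for TLR4 and LTF, with adjusted p between 0.0642 and 0.142 by permutation.

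**Figure D4:**
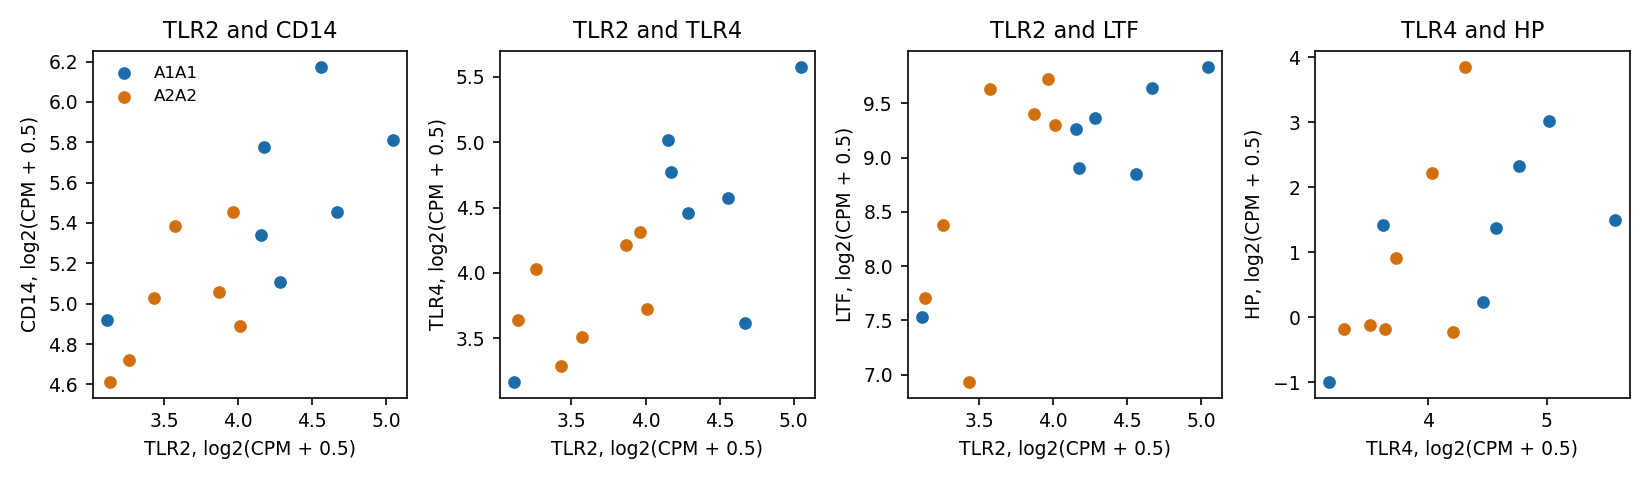
Each panel sets 2 genes against each other as log2(CPM + 0.5), 1 point per cow, blue for A1A1 and orange for A2A2. TLR2 rises with CD14 (r = 0.77), TLR4 (r = 0.71) and LTF (r = 0.71) over the 14 cows, and TLR4 with HP has r = 0.59.

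Other genes of the table followed each member more closely than the members followed each other. Ranked by Pearson's r with TLR2 over the 14 cows, CD14 took position 113 of 12319 genes, TLR4 position 335, LTF position 372 and HP position 2789. Ranked by r with TLR4, CD14 took position 1196 and HP position 1314. The closest gene to TLR2 was ENSBTAG00000037800 (r = 0.88), to TLR4 ENSBTAG00000020453 (r = 0.95), to CD14 ENSBTAG00000020433 (r = 0.96), to LTF ENSBTAG00000021899 (r = 0.90) and to HP ENSBTAG00000009434 (r = 0.96). Their names are not paired with these identifiers in the tables used here. All 5 are low, with a median of 0.485 to 1.84 CPM, and each r is the highest of 12319, given as a description.

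The members were also set against 4 measures of the libraries (total count, TMM factor, number of genes with a count, and log2 CPM of the most abundant gene). Of these 20 relations 0 passed an adjusted p of 0.05 by permutation of r, and 6 had an unadjusted p under 0.05. The 2 closest were CD14 with the most abundant gene, with r = 0.67 (permutation p = 0.00949, adjusted p = 0.0949) and rho = 0.68 (p = 0.00967, adjusted p = 0.0645), and TLR4 with the number of genes detected, with r = 0.66 (permutation p = 0.00932, adjusted p = 0.0949) and rho = 0.71 (p = 0.00625, adjusted p = 0.0625). Without the 2 farthest libraries r was 0.53 and 0.54, with genotype means removed 0.43 and 0.70, and over the 10 cows lacking the suffix 0.73 and 0.70. With the most abundant gene, TLR2 had r = 0.55 (permutation p = 0.0430, adjusted p = 0.161) and rho = 0.65 (p = 0.0143, adjusted p = 0.0716), and TLR4 had r = 0.62 (permutation p = 0.0173, adjusted p = 0.115) and rho = 0.71 (p = 0.00624, adjusted p = 0.0625). Without the 2 farthest libraries r was 0.43 for TLR2 and 0.59 for TLR4, and with genotype means removed 0.17 and 0.46. Over the 10 cows lacking the suffix it was 0.56 and 0.67. Within A1A1 the r with this gene was 0.36 for TLR2, 0.40 for TLR4 and 0.86 for CD14, and within A2A2 it was -0.11, 0.71 and -0.074 (n = 7 each). LTF had r = 0.53 with the total count (permutation p = 0.0482, adjusted p = 0.161) and rho = 0.44 (p = 0.115, adjusted p = 0.254). That r was 0.029 without A1A1 7 and A2A2 17, the 2 libraries of lowest total, so the relation rests on them. The r of LTF with the total count was 0.70 with genotype means removed over all 14 cows, 0.78 over the 10 cows lacking the suffix, 0.55 within A1A1 and 0.87 within A2A2. None of these sets leaves out both A1A1 7 and A2A2 17, which also lack the suffix.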

How the data were processed

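Per the labels' protocols, RNA was extracted from frozen milk and sequenced as paired-end mRNA libraries. The deposited tables hold raw counts and FPKM, both made by the authors. Tools named without a role in the submitters' processing notes are STAR, edgeR 4.0.16, cutadapt 4.0 and FastQC 0.11.9. Genome build, annotation and counter: not given in the sources used here, so no coordinates or sequences are printed. Counts divided by the deposited FPKM gave gene lengths within 0.1 of a whole number of bases for 21104 of 21104 genes with a count, 3934 for TLR2, 3429 for TLR4, 2790 for CD14, 2181 for LTF and 1294 for HP. The deposited FPKM follow a library size close to the TMM-scaled one, not the total count. TLR2 had 310 counts in A1A1 3 and 320 in A2A2 5, in totals of 19540355 and 22230659. Its FPKM were 6.21 and 3.60 there, and its CPM with TMM factors 25.0 and 14.1. How reads shared by overlapping or related genes were counted is not stated.

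The identifiers and symbols of the 5 genes were given together with the choice of members. The reference table matched 0 identifiers to a symbol, so the planned lists of pathway genes and cell type markers, and their part of the rule for named genes, were not run. What was named were the members and, for each, the 1 gene of highest r. The members and lists were chosen with earlier results of these data known.

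Genotype and sample number come from the sample titles. The test was the robust quasi-likelihood F test of edgeR 4.0.16 in R 4.3.3 (two-sided, filterByExpr, TMM factors) on the counts of 12320 genes, with Benjamini-Hochberg adjustment at 0.05. All 5 members passed the filter. CPM uses TMM factors. Exact permutation tests ran over 3432 splits, and intervals at 95% invert them. Alternatives were library totals or RLE factors for scaling, a CPM filter or none, DESeq2 1.42.0, limma 3.58.1 (voom, and log2 FPKM with pseudocounts of 1 and 0.1), no robust estimation, the suffix as covariate, the 10 libraries without it, and each library left out. The fit without A1A1 3, 7 and 9 and the 20 relations with library measures were chosen after seeing the data. Scripts were tested on simulated data.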

Additional observations from a re-analysis of the deposited data

Results flagged for a closer look

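Within each genotype, 12 sets of 7 values (CPM of the 5 genes and the total count) were searched for a cow far from the other 6 by Dixon's test, and 2 were found. Chance gives about 1 in 20 sets for normally distributed values, and CPM can be skewed. A2A2 11 had 14.0 CPM of HP, with the next A2A2 cow at 4.17, a gap of 0.720 of the whole range. A2A2 17 had a total count of 17499819, where the next A2A2 library had 20965736, a gap of 0.631 of the range. A2A2 17 also had the lowest LTF of all cows.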

How the results depend on the processing

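The count of 0 genes called by genotype was 9 with DESeq2 (3 higher, 6 lower in A2A2), 1 with limma on log2(FPKM + 1) and 0 in the other settings, with a lowest of 0 and a highest of 0 when 1 library was left out. TLR2, TLR4 and CD14 were lower in A2A2 in every setting run. The settings on FPKM keep a scaling close to TMM, so they are no separate check of the scaling. Leaving out 1 library gave edgeR log2 fold changes of -0.90 to -0.61 for TLR2, -0.96 to -0.55 for TLR4, -0.61 to -0.39 for CD14, -0.35 to -0.013 for LTF and -1.22 to 0.62 for HP. LTF was 0.016 with library totals and 0.10 in the 10 libraries without the suffix. HP was -0.94 by voom, -0.26 with the suffix as covariate, -0.23 on log2(FPKM + 1), -0.40 on log2(FPKM + 0.1) with and without a filter, and -0.35 without A1A1 3, 7 and 9. The cause was not tested.

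By the exact permutation test, TLR2 differed by -0.49 with library totals (p = 0.0932) and -0.49 without the suffix libraries (p = 0.159), and CD14 by -0.30 (p = 0.191) and -0.44 (p = 0.151). TLR4 differed by -1.14 without A1A1 3, 7 and 9 (exact permutation p = 0.00303). That choice followed the data and took out the A1A1 cows whose TLR4 was not above every A2A2 cow. All A1A1 cows left then exceeded every A2A2 cow, so this p is the smallest that such a split allows and is no separate support. With each library left out in turn the differences were -0.87 to -0.55 for TLR2, -0.85 to -0.45 for TLR4 and -0.59 to -0.38 for CD14. The 2 members with p under 0.05 became 0 with library totals, 0 without the suffix libraries and 0 to 3 with 1 library left out: 0 without A1A1 15, A2A2 6 or A2A2 13, and 1 without A1A1 8, A1A1 9 or A2A2 4.

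The 3 correlated pairs became 4 with library totals and 0 without the suffix libraries. With 1 library left out there were 3 to 6, with 6 without A1A1 3 and 5 without A1A1 10, A2A2 1 or A2A2 6. These counts do not always hold the same pairs: TLR2 with TLR4 did not pass without A1A1 15 (r = 0.58, permutation adjusted p = 0.0937), nor TLR2 with LTF in the 11 libraries other than A1A1 3, 7 and 9 (r = 0.68, permutation adjusted p = 0.0596). The 4 neighbour pairs in the order of levels passed in every setting. The 182 genes that differed with the suffix were 51 with library totals, 1073 with DESeq2, 111 without genotype as covariate and 0 to 518 with 1 library left out (518 without A1A1 7, 426 without A2A2 5, 44 without A2A2 11, 21 without A2A2 17, 1 without A1A1 2 and 0 without A1A1 3, 8, 10 or 15 or A2A2 1, 4 or 13). In that contrast leaving out 1 library gave -0.092 (without A1A1 15) to 0.40 for TLR2 and -0.063 (without A1A1 15) to 0.52 for LTF. No paired analysis was possible because each sample number occurs once. Counts of HP, 0 to 9 in 5 cows, limit its precision.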

Other observations

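Ratios of FPKM within a library do not depend on how the libraries are scaled. Lactoferrin RNA exceeded CD14 RNA 20.4-fold in the median cow, with 4.84 in A2A2 17 as the lowest ratio and 27.7 in A2A2 4 as the highest, and the medians were 19.7 in A1A1 and 24.6 in A2A2. The ratio of TLR4 to TLR2 ran from 0.540 in A1A1 3 to 2.11 in A1A1 2, both A1A1 cows, with medians of 1.30 in A1A1 and 1.46 in A2A2. The ratio of CD14 to TLR4 ran from 1.44 in A1A1 15, the cow with the most TLR4, to 4.66 in A2A2 1. No test was run on these ratios, which were chosen with the values in view.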
